A study of Mus musculus with 2 samples.

Results

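Pancreatic islets of mice aged 5 weeks held cells with high transcript levels of both insulin and pancreatic polypeptide, and 363 such cells among 8926 kept cells are described here. They were selected on measured hormone levels, given as UMIs (unique molecular identifiers, each marking 1 captured transcript) per 10000 UMIs of the cell. A cell counted as double-positive with at least 300 of Ins1 plus Ins2, at least 150 of Ppy, under 100 of Gcg and under 40 of Sst. Kept cells had more than 2500 detected genes, no upper limit on genes, and under 10% of UMIs from mitochondrial genes. The control library held 36 of these cells among 4747 kept cells. The TBL/RβKO library held 327 among 4179.

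Each group gave 1 library of 150 islets pooled from 4 mice, and the spread between animals could not be measured, so that group and library cannot be told apart. TBL/RβKO mice (labelled TBL/RBKO) carry loxP-flanked Tbl1x and Tbl1xr1 and a Cre recombinase inserted at the endogenous Ins1 locus, which is active in β-cells. Control mice (labelled wildtype) were littermates without Cre. Islets of both groups were held overnight in RPMI-1680 with serum and antibiotics before they were dissociated and loaded for droplet sequencing.

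Insulin is the glucose-lowering hormone of β-cells, while pancreatic polypeptide is made by PP-cells (also called γ-cells), a minor islet cell type. Ppy, which encodes pancreatic polypeptide, and Pyy, which encodes peptide YY, are neighbouring genes of the neuropeptide Y family, whose peptides act on Y receptors. In adult mouse islets the β-cell state is kept by factors such as MAFA, PDX1, NKX6-1 and PAX6. For comparison, 2 other sets of cells were taken from the same libraries. Insulin-only cells met the insulin limit and not the Ppy limit, and Ppy-only cells met the Ppy limit and not the insulin limit, both with Gcg and Sst under their limits.

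Ppy (ENSMUSG00000017316) lies on chromosome 11 at 101990756 to 101992145 of GRCm39 and Pyy (ENSMUSG00000017311) at 101997502 to 101998658, both on the minus strand, with 5356 bases between them. Ins1 (ENSMUSG00000035804), the locus that carries Cre in TBL/RβKO mice, lies on chromosome 19 at 52252735 to 52253914 on the plus strand. The sequences around the start sites of these genes are shown because Ppy and Pyy are neighbours whose levels are compared throughout, while Ins1 is both a hormone gene of the definition and the Cre locus. They are RefSeq sequences of GRCm38.p6, 300 bases each, written 5′ to 3′ on the strand of the gene, for Ppy chr11:102101270-102101569 on the minus strand, for Pyy chr11:102107783-102108082 on the minus strand and for Ins1 chr19:52264047-52264346 on the plus strand. Capitals mark 3 motifs searched on both strands, TAAT (a homeodomain core), CAGATG (an E box) and TATAA (the core of a TATA box), of which the first and the last overlap at 1 place in Ins1.
Ppy: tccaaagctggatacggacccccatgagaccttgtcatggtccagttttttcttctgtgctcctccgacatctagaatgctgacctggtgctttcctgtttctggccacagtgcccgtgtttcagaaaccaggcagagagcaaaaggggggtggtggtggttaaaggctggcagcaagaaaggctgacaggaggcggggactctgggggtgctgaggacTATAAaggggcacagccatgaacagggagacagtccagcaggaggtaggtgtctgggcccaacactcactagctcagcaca
Pyy: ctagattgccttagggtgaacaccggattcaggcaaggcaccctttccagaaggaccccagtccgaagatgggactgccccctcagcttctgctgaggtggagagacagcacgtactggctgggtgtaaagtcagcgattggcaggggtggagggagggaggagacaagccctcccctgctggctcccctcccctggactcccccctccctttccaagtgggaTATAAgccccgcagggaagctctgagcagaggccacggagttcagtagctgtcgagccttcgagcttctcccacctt
Ins1: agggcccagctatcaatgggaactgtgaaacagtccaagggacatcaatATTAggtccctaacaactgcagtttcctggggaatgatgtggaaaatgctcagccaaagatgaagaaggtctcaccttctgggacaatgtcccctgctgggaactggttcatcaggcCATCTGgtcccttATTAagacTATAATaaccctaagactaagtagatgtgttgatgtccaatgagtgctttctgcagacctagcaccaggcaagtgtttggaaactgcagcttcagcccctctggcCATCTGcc
The Ppy and Pyy windows each held 1 TATA box core and 0 of both other motifs. The Ins1 window held the homeodomain core 3 times, the E box 2 times and the TATA box core 1 time. Among 32851 windows of the same length, 58.0% held the homeodomain core, 17.2% the E box and 24.9% the TATA box core. A match describes letters only and shows no binding.

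Double-positive cells made up 0.758% of kept control cells (95% exact binomial interval 0.532 to 1.05%) and 7.83% of kept TBL/RβKO cells (7.03 to 8.68%). The difference was 7.07 percentage points (6.24 to 7.95, Newcombe's method). All intervals given here cover counting error only. Among insulin cells under the Gcg and Sst limits, 1.55% of 2318 in the control and 36.9% of 886 in TBL/RβKO reached the Ppy limit. Among Ppy cells under the same limits, 20.7% of 174 and 57.6% of 568 reached the insulin limit. The definition used these levels, so the shares describe the 2 libraries. Cells past the Gcg or Sst limit were counted whatever their other hormones. Insulin at the limit was as frequent among such Gcg cells in both libraries, at 15.3% of 1618 and 15.3% of 1920. It stood at 47.5% of 659 and 40.9% of 897 of Sst cells. Ppy cells counted in the same way had it in 20.4% of 675 in the control and 45.9% of 1440 in TBL/RβKO.

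**Figure D1:**
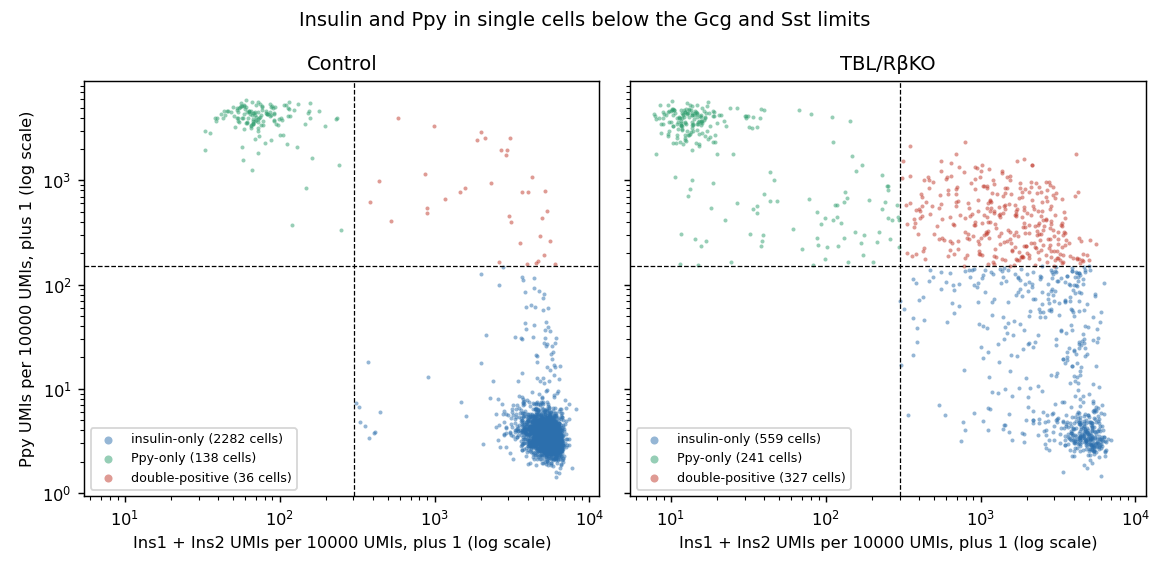
Ins1 plus Ins2 (x axis) against Ppy (y axis), both as UMIs per 10000 UMIs plus 1 on log scales, for each cell under the Gcg and Sst limits of the control (left) and TBL/RβKO (right) libraries. Dashed lines mark the limits of 300 and 150, and the 327 red cells of TBL/RβKO form a broad field between the insulin-only (blue) and Ppy-only (green) cells, where the control had 36.

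Free RNA gives some hormone UMIs in every cell, so cells with markers of other cell types were measured as well. Cells past a list of immune, endothelial, stromal, ductal or acinar markers had a median of 90.6 insulin UMIs per 10000 in the control (182 cells) and 15.7 in TBL/RβKO (374 cells). Their median Ppy was 3.41 and 3.33. In these cells, the Ppy limit was reached by 3.30% in the control and 7.22% in TBL/RβKO, and the insulin limit by 7.14% and 12.6%. Of the double-positive cells themselves, 0 of 36 and 7 of 327 (2.14%) were past such a list. So were 8 of 2282 control and 22 of 559 TBL/RβKO insulin-only cells. The cells past a list thus include endocrine cells, and their shares at the hormone limits do not measure free RNA alone. The barcode sequence of 1 TBL/RβKO double-positive cell was among the 14 present in both libraries.

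Double-positive cells were rich in RNA. Outside hormones and mitochondrial genes, the 36 control cells held a median of 38952 UMIs, against 20422 in control insulin-only and 13297 in control Ppy-only cells. In TBL/RβKO the medians were 35673 in double-positive, 31375 in insulin-only and 16822 in Ppy-only cells. At least 6000 genes were detected in 63.9% and 72.8% of double-positive cells of the control and TBL/RβKO, against 44.3% and 67.4% of insulin-only cells. Doublet scores marked 6 of 36 control double-positive cells (16.7%, 6.37 to 32.8%), against 3.20% of control insulin-only and 2.17% of control Ppy-only cells. In TBL/RβKO they marked 11 of 327 (3.36%, 1.69 to 5.94%), against 3.40% and 3.32%. The marks are the highest scores at a set rate, and took 5.18% of scored control and 4.32% of scored TBL/RβKO barcodes. The scoring tool's own threshold had not worked in TBL/RβKO. The marked shares therefore cannot tell how many doublets each set held. The part of 2 cells captured together in these groups was not tested.

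The hormone content of the double-positive cells differed between the libraries. The 36 control cells had insulin levels between 384 and 5950 per 10000 with a median of 2905, while the 327 TBL/RβKO cells had a median of 1499. Ppy ranged from 158 to 3954 in the control cells with a median of 712, and had a median of 389 in TBL/RβKO. Pyy, which the definition did not use, reached 100 per 10000 in 86.1% of control and 93.9% of TBL/RβKO double-positive cells, and had a median of 336 in control and 569 in TBL/RβKO double-positive cells. In Ppy-only cells the order of Pyy was the other way, with medians of 986 in the control and 884 in TBL/RβKO. At the Ppy limit, the nearest TBL/RβKO insulin cells stood at 151 inside and 149 outside, and the nearest control cells at 158 and 147, so that the limit cut through a continuous range in TBL/RβKO.

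Peptide YY transcripts outnumbered those of pancreatic polypeptide in TBL/RβKO double-positive cells. Summed over cells, there were 1.20 Pyy UMIs per Ppy UMI (1.19 to 1.20) in these cells and 0.329 (0.326 to 0.331) in control double-positive cells. Ppy-only cells had 0.269 in the control and 0.352 in TBL/RβKO. Their Ppy level had a median of 4116 and a lower quartile of 3503 in the control, against 3325 and 804 in TBL/RβKO. The TBL/RβKO Ppy-only set thus also held cells with far less Ppy than most control Ppy-only cells, and it does not stand for PP-cells alone. TBL/RβKO insulin-only cells had 2.92 Pyy UMIs per Ppy UMI and control insulin-only cells 1.25. Both of these sets have low Ppy by definition. Pyy exceeded Ppy in 5 of 36 control double-positive cells (13.9%, 4.67 to 29.5%) and in 212 of 327 TBL/RβKO cells (64.8%, 59.4 to 70.0%). It did so in 0.725% of 138 control and 21.6% of 241 TBL/RβKO Ppy-only cells. The ratio was 1.07 in the 89 TBL/RβKO double-positive cells under 6000 genes and 1.22 in the 238 others.

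**Figure D2:**
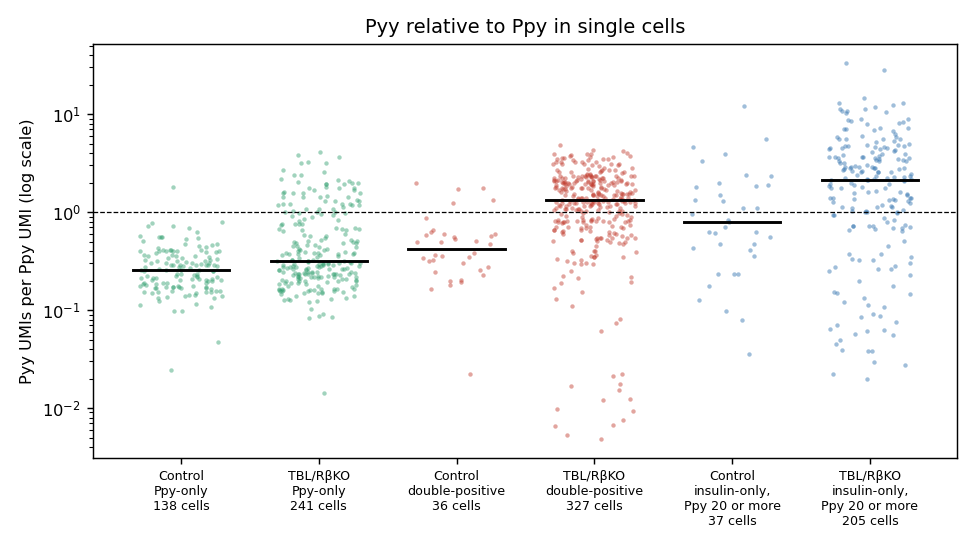
Pyy UMIs per Ppy UMI in single cells on a log axis, for Ppy-only cells, double-positive cells and insulin-only cells with Ppy of 20 per 10000 or more, of the control and TBL/RβKO libraries. Black bars are medians and the dashed line marks equal numbers; most TBL/RβKO double-positive cells (212 of 327) lie above it and most control double-positive cells below it.

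Across insulin cells of the TBL/RβKO library, Ppy took all levels from near 0 upwards, and median insulin was lower at each higher Ppy level. Of its insulin-only cells, 36.7% (32.7 to 40.8%, 205 of 559) already had Ppy between 20 and 150, against 1.62% (37 of 2282) in the control. Median insulin was 4677 per 10000 in TBL/RβKO insulin cells with Ppy under 5, 2282 at Ppy of 100 to 150, 1386 at 300 to 600 and 932 at 1200 or more. Median Pyy in the same cells was 2.72, 270, 659 and 696. In the control, 92.3% of insulin cells had Ppy under 5, with a median insulin of 5328 and a median Pyy of 0.998. Levels given as a share of all UMIs fall for one hormone where another rises.

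**Figure D3:**
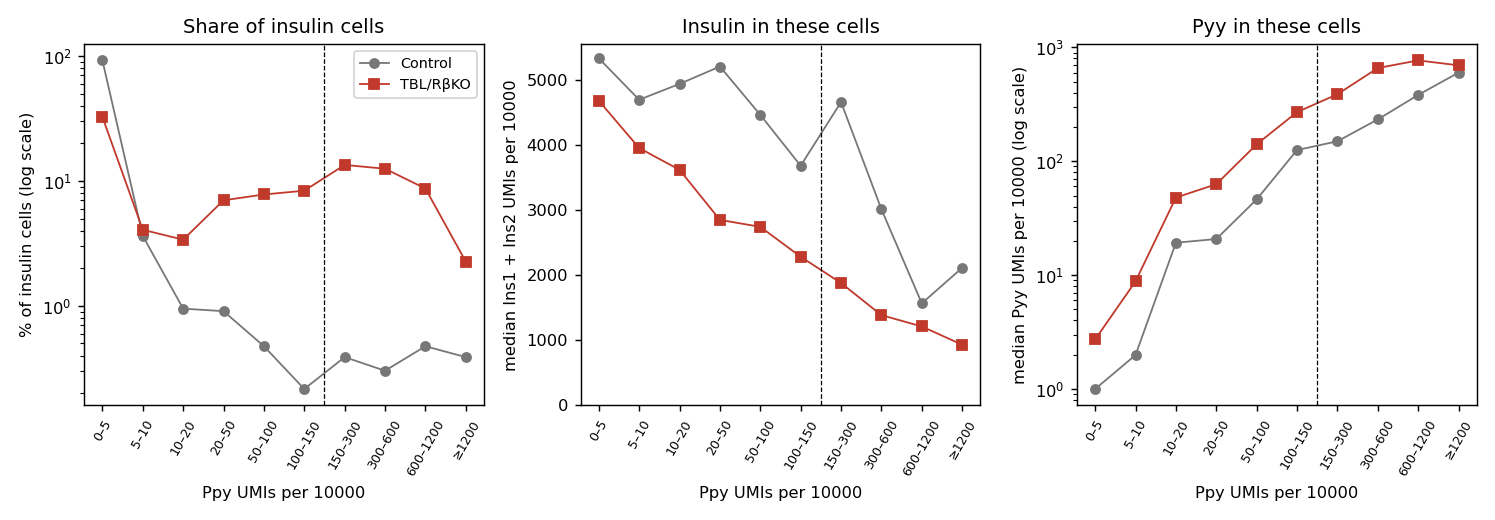
Insulin cells of both libraries divided by their Ppy level (x axis, UMIs per 10000; the dashed line is the limit of 150). The panels give the share of insulin cells on a log axis, the median of Ins1 plus Ins2 and the median of Pyy on a log axis; from the lowest to the highest Ppy level, median insulin went from 4677 to 932 in TBL/RβKO.

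Across the 327 TBL/RβKO double-positive cells, Ppy and Pyy had a Spearman correlation of 0.43, Ppy and insulin one of −0.29, and insulin and Pyy one of −0.25. The 36 control cells had 0.75, −0.48 and −0.47. These describe cells of 1 library each, whose hormones share a total. The genes most like Ppy over the 327 cells were Cltrn at 0.34, Cst3 at 0.33, Scg5 at 0.32 and Bsg at 0.31, followed by Itm2b, Tspan8, Resp18, Pcsk1n, Fxyd3 and Chga at 0.26 or more. With insulin, the same genes had correlations from −0.06 for Fxyd3 to 0.31 for Bsg, so several went with both hormones. Scg5, Resp18, Pcsk1n and Chga encode proteins of secretory granules.

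Iapp, which encodes the β-cell hormone amylin, stood near its insulin-only level in the double-positive cells. Over the summed UMIs of each set, it stood at 422 UMIs per 10000 in control and 486 in TBL/RβKO double-positive cells, against 457 and 481 in insulin-only cells and 25.4 and 107 in Ppy-only cells. The ratio of the insulin genes differed between the libraries. There were 0.115 Ins1 UMIs per Ins2 UMI in TBL/RβKO double-positive and 0.169 in TBL/RβKO insulin-only cells, against 0.348 and 0.382 in the control. Of the TBL/RβKO insulin-only cells, those with insulin under 2500 per 10000 had 0.125 and the others 0.173. The ratio thus also differed with the insulin level, which was lower in the double-positive cells. Cre occupies the Ins1 locus in TBL/RβKO, and its part in this ratio cannot be told apart from that of the deletion. Cre UMIs were found in 16.5% of TBL/RβKO double-positive (54 of 327), 22.5% of insulin-only and 0.830% of Ppy-only cells. It was found in 0 of 36 control double-positive cells (exact upper bound 9.74%).

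The targeted genes Tbl1x and Tbl1xr1 had more UMIs in the library labelled TBL/RβKO than in the control. From here on, gene levels are UMIs summed over the cells of a set, per 1000000 UMIs outside 7 hormone genes and mitochondrial genes (CPM). Tbl1x stood at 745 in TBL/RβKO double-positive cells (731 to 760, Poisson interval) and 184 (162 to 209) in control double-positive cells. It was at 595 in TBL/RβKO insulin-only and 513 in TBL/RβKO Ppy-only cells, against 233 and 185 in the control sets. Tbl1xr1 stood at 287 (278 to 296) and 41.8 (31.4 to 54.6) in TBL/RβKO and control double-positive cells. Neither gene was highest in double-positive cells. Per 10000 of all UMIs, Tbl1x stood at 5.895 in TBL/RβKO insulin-only cells with insulin under 2500 per 10000. In TBL/RβKO double-positive cells it stood at 4.478 on that scale. Tbl1xr1 stood at 2.428 and 1.724 in the same 2 sets. A count over the whole gene cannot show if the floxed exons were in these transcripts. Of the other genes of the NCoR/SMRT corepressor complex, the TBL/RβKO double-positive cells had 557 of Ncor1 and 49.9 of Gps2, against 418 and 60.4 in the control cells, and Hdac3 lay under the floor of 50 CPM.

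The first gene comparison asked how TBL/RβKO double-positive cells differed from insulin-only cells of the same library. Of 4379 genes at 50 CPM or more in either set, 43 (0.982%) were at least 2-fold higher and 49 (1.12%) at least 2-fold lower in the double-positive cells. β-cell markers were among the lower genes. Of 15 measured markers, 8 were at least 2-fold lower and 0 higher, with a median log2 ratio of −1.21 against −0.03 over all genes. Mafa, the factor of mature β-cells, stood at 51.4 (47.6 to 55.3) in double-positive and 316 (308 to 324) in insulin-only cells. Slc2a2, the glucose transporter of mouse β-cells, stood at 43.2 and 197. Slc30a8, the zinc transporter of insulin granules, stood at 112 and 396, and G6pc2, a glucose-6-phosphatase of β-cells, at 290 and 864. The insulin level differs between these sets by selection, so the 145 insulin-only cells with insulin under 2500 per 10000 were compared too. Against them 0 of 13 β-cell markers were past 2-fold in either direction, with a median of −0.16, and Mafa stood at 41.1 there. Of all 4350 genes measured against them, 22 were at least 2-fold higher and 15 lower in the double-positive cells.

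**Figure D4:**
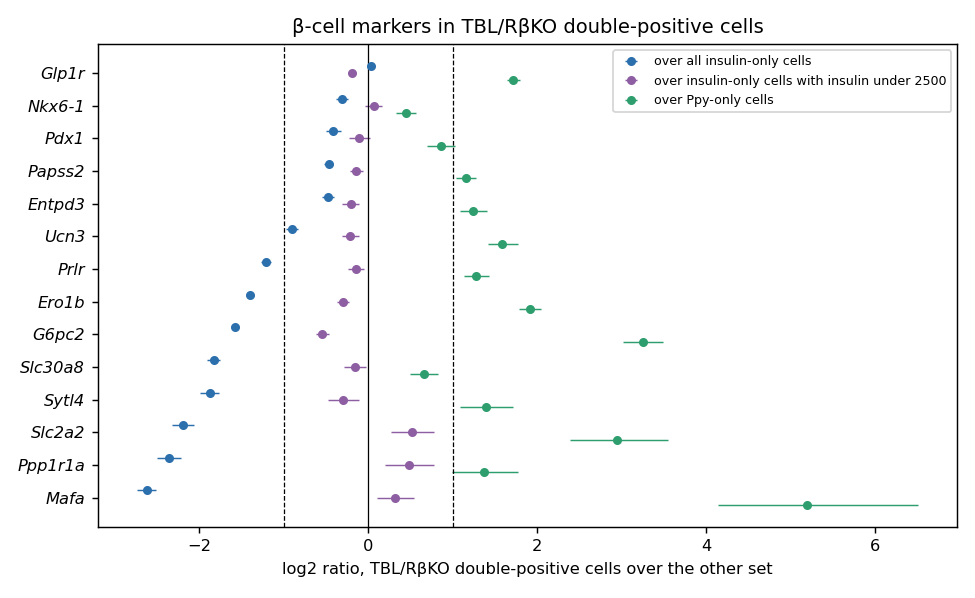
Log2 ratio (x axis) of 14 β-cell markers in TBL/RβKO double-positive cells over all insulin-only cells (blue), insulin-only cells with insulin under 2500 per 10000 (purple) and Ppy-only cells (green) of the same library. Bars are 95% intervals of counting error and dashed lines mark 2-fold; the blue points reach −2.62 for Mafa, while the purple points stay within 2-fold.

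The factors PDX1, NKX6-1, PAX6 and NEUROD1 differed less. Pdx1 stood at 126 in TBL/RβKO double-positive and 168 in insulin-only cells, and Nkx6-1 at 200 and 247. Pax6 stood at 355 and 337 and Neurod1 at 455 and 462. Of 12 measured β-cell transcription factors, Mafa alone was past 2-fold. Of 13 genes of granules and prohormone processing, 0 were past 2-fold. Chga, which encodes the granule protein chromogranin A, stood at 28003 in TBL/RβKO double-positive, 21690 in insulin-only and 14219 in Ppy-only cells, and at 13219 in control double-positive cells.

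Named by the size of the ratio alone, the 8 highest genes over insulin-only cells were Arg1, Mctp2, Areg, Tspan8, Neurog3, Serpina7, Gast and Pcp4l1, with log2 ratios from 2.32 to 1.84. Neurog3, the factor of endocrine progenitors, stood at 64.1 (59.8 to 68.5) in TBL/RβKO double-positive, 15.1 in insulin-only and 29.4 in Ppy-only cells, and at 4.65 (1.71 to 10.1, 6 UMIs) in control double-positive cells. Its UMIs came from 127 of the 327 cells. Gast, which encodes gastrin, a hormone of fetal islets, stood at 441, 122 and 257 in the TBL/RβKO sets, and 26.0% of its UMIs in double-positive cells came from 1 cell. The 8 lowest were Hspa1a, Sgcz, Car10, Mafa, Crybb3, Dapl1, Cttnbp2 and Ppp1r1a, from −4.88 to −2.36. Hspa1a, a heat-shock gene, stood at 1.94 in double-positive and 57.0 in insulin-only cells, where 1 cell held 67.6% of its UMIs.

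The second comparison set TBL/RβKO double-positive cells against Ppy-only cells of that library. At the insulin limit between these sets, the nearest TBL/RβKO cells stood at 310.6 inside and 295.5 outside. The nearest control cells stood at 383.7 and 249.6. The TBL/RβKO Ppy-only set therefore included cells with insulin close to that of double-positive cells. Of 4658 genes, 115 (2.47%) were at least 2-fold higher and 211 (4.53%) lower. Of 13 measured β-cell markers, 9 were higher and 0 lower, with a median log2 ratio of 1.28 against −0.05 over all genes. Mafa had 7 UMIs in Ppy-only cells, or 1.41 CPM, at a log2 ratio of 5.19. Genes of the PP-cell list went the other way in 3 of 5 measured cases and 0 were higher (1 with all UMIs as the denominator). Over TBL/RβKO insulin-only cells, 0 of 4 measured genes of this list were past 2-fold, with a median log2 ratio of 0.33. With all UMIs as the denominator, 1 of the 4 was higher there. Etv1, a transcription factor of PP-cells, stood at 155 in double-positive and 373 in Ppy-only cells, Meis2 at 495 and 1069 and Spock1 at 13.4 and 51.7. Id2 stood at 426 and 274. Irx2, a factor of α- and PP-cells, stood at 5.76 in TBL/RβKO double-positive and 17.9 in Ppy-only cells.

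Immediate early genes, which respond quickly to stimuli, were lower in TBL/RβKO double-positive than in Ppy-only cells for 7 of 7 genes, with a median log2 ratio of −2.12. Fos stood at 578 and 2504. The same genes were within 2-fold of insulin-only cells for 6 of 6 measured genes, where Fos was at 347, while 2 of the 6 were past 2-fold higher with all UMIs as the denominator. By size alone, the 8 highest genes over Ppy-only cells were Mafa, Pdyn, Nupr1, G6pc2, Csn3, Krt19, Crybb3 and Prss53, from 5.19 to 2.07. Among the 8 lowest were Olfm3, Gadd45b, Lrrtm4, Rcn3, Cd200l1, Ctxn2 and Agpat4, from −4.18 to −3.17.

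**Figure D5:**
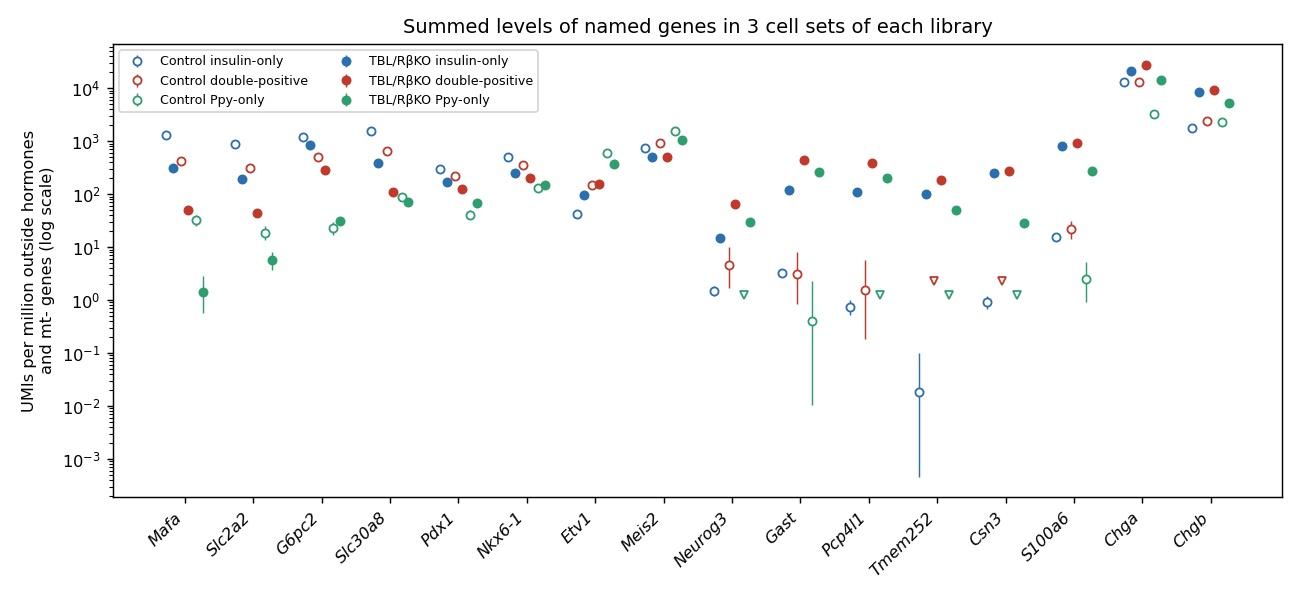
CPM outside hormones and mitochondrial genes (log y axis) of 16 genes in insulin-only (blue), double-positive (red) and Ppy-only (green) cells of the control (open) and TBL/RβKO (filled) libraries. Bars are 95% Poisson intervals, and triangles mark the limit that a count of 0 allows. Mafa stood at 51.4 in TBL/RβKO and 423 in control double-positive cells.

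Few genes of the TBL/RβKO double-positive cells stood apart from both other sets. Of 4819 genes, 9 (0.187%) were at least 2-fold above both insulin-only and Ppy-only cells and 6 (0.125%) at least 2-fold below both. Those above were Areg, Camkk2, Chst9, Defb1, Gpd1, Krt19, Neurog3, Syt16 and Tns1. Syt16, of the synaptotagmin family, stood at 450 in double-positive, 138 in insulin-only and 208 in Ppy-only cells. Krt19, a keratin of duct cells, stood at 164, 74.2 and 24.8, and its UMIs came from 119 of 327 cells. Of the 5 ductal markers, Spp1 was lower instead, at 88.6 against 383 and 305, and Krt7 stood at 788, within 2-fold of insulin-only cells. Apobec1, Cdh8, Rasd1, Robo2, Spock1 and Spp1 were below both.

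The third comparison set the double-positive cells of the libraries against each other. Of 4837 genes, 324 (6.7%) were at least 2-fold higher and 282 (5.83%) lower in TBL/RβKO. Of 16 measured β-cell markers 7 were lower and 2 higher (6 and 3 with all UMIs as the denominator). Mafa stood at 51.4 against 423 (388 to 460), Slc2a2 at 43.2 against 311, Slc30a8 at 112 against 668 and Ppp1r1a at 33.2 against 389. Glp1r, the receptor of the incretin GLP-1, was higher, at 1063 against 375. Among 17 genes of stimulus-secretion coupling, 4 were higher and 6 lower (6 and 4 with all UMIs as the denominator), the lower ones with Abcc8 at 317 against 739 and Kcnj11 at 23.1 against 65.8, which encode the subunits of the ATP-sensitive potassium channel. Immediate early genes were lower in 6 of 7 cases, or in 4 of 7 with all UMIs as the denominator, with Fos at 578 against 1893.

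A list of 9 genes that earlier work on these libraries had found raised in insulin cells of TBL/RβKO was higher in 9 of 9 cases, which is no independent evidence. Csn3, a milk protein gene, had 3673 UMIs in TBL/RβKO and 0 in control double-positive cells, at least 118-fold higher against the floor of 3 counts over the group. Tmem252 had 2527 and 0 UMIs, at least 81.3-fold higher. Pcp4l1 stood at 388 against 1.55 (2 UMIs), S100a6 at 924 against 21.7 and Defb1, a defensin, at 1544 against 187. By size alone the 8 highest were Pcp4l1, Gast, Csn3, Tmem252, Mgp, Tns1, Krt19 and Thrsp. Of the Mgp UMIs in TBL/RβKO double-positive cells, 71.2% came from 1 cell, and the log2 ratio of Mgp went from 6.22 to −1.65 with cells under 6000 genes. The 8 lowest were Ccl5, Fcer1g, H2-Aa, H2-Ab1, H2-Eb1, C1qa, Cd74 and Gadd45b.

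The control double-positive cells were also compared with the other control sets. Against control insulin-only cells, 117 (2.39%) of 4893 genes were at least 2-fold higher and 108 (2.21%) lower, and against control Ppy-only cells 216 (4.34%) of 4978 were higher and 222 (4.46%) lower. Their marker levels stood between those of the other control sets: Mafa at 423 between 1302 in insulin-only and 31.9 in Ppy-only cells, Slc2a2 at 311 between 897 and 18.8, and Etv1 at 150 between 42.2 and 588. Of 5273 genes, 10 (0.19%) were above both sets and 2 (0.0379%), Il31ra and Zfp804b, below both. Among those above were Ccl5, Cd74, Fcer1g, Gem, H2-Aa, H2-Ab1, H2-Eb1, Shisal2b and Unc5d. A single cell held 97.9% of the 187 Cd74 UMIs and most of those of Ccl5 and the 3 H2 genes, which are genes of immune cells. With the highest doublet scores removed, the log2 ratio of TBL/RβKO over control double-positive cells went from −3.75 to 1.48 for Cd74 and from −4.62 to 0.049 for H2-Eb1. Few control UMIs of either gene were left then, so these later ratios give no firm direction. Unc5d, a netrin receptor gene, stood at 222 against 18.1 in insulin-only cells, from 24 of 36 cells.

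Against control insulin-only cells, TBL/RβKO double-positive cells had 279 (5.73%) of 4868 genes at least 2-fold higher and 270 (5.55%) lower, and 13 of 16 measured β-cell markers lower with 0 higher. These sets differ in library as well as in hormone content.

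Double-positive cells of TBL/RβKO varied with their insulin. In the 101 cells with insulin under 1000 per 10000, Mafa stood at 2.35 (9 UMIs), against 25.9 in the 111 cells at 1000 to 2000 and 113 in the 115 cells at 2000 or more. G6pc2 stood at 126, 220 and 482 and Slc30a8 at 68.4, 98.4 and 157 in the same order. Pdx1 stood at 110, 112 and 152. Gast went the other way, at 632, 608 and 140, but 1 cell held 30.7%, 55.0% and 27.4% of its UMIs in these ranges, and without those cells it stood at 442, 277 and 102. Neurog3 stood at 63.2, 81.4 and 48.6. Without the cell with most Mafa UMIs, Mafa in the middle range stood at 13.9. These values without 1 cell were added after seeing the data. Chga stood at 26412, 28217 and 29034. Median UMIs outside hormones were 34202, 37909 and 35673.

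Genes that mature β-cells silence were low throughout. Of 15 disallowed genes (genes that most tissues use), 0 reached 50 CPM in TBL/RβKO double-positive or insulin-only cells. Aldh1a3, a marker of β-cell dedifferentiation, had a UMI in 1 of 327 double-positive cells (0.306%) and in 3.04% of TBL/RβKO insulin-only cells. The Y receptor genes Npy1r, Npy2r, Npy4r and Npy5r stood between 0 and 0.0748 in the TBL/RβKO double-positive cells, and Npy at 1.42. Gene levels are scaled to UMIs outside hormones. With all UMIs as the denominator, the median log2 ratio moved from −0.03 to 0.23 over insulin-only cells, from −0.05 to 0.02 over Ppy-only cells and from −0.09 to 0.55 over control double-positive cells. The share of higher genes among those past 2-fold then moved from 46.7% to 76.0%, from 35.3% to 48.1% and from 53.5% to 93.2%. The medians of the lists of β-cell transcription factors and of stimulus-secretion coupling changed sign by it over insulin-only cells and over control double-positive cells, so no direction is given for them as groups.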

How the data were processed

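Single cells of dissociated mouse islets were sequenced with Chromium 3′ v3.1 chemistry in 2 libraries, 1 per group. The deposited counts are UMIs for each gene in each barcode, not normalized, written by the authors' run of Cell Ranger 7.1.0 (submitters' notes, which also name GRCm39 and mm39). There were 22383 features. Depth was 241434108 UMIs in 7067 control barcodes, and 185062206 UMIs in 5833 TBL/RβKO barcodes. The values are whole, with no removal of free RNA or doublets visible.

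Hormone levels were computed per 10000 UMIs of a cell. UMIs were summed per library and set of cells, and scaled per 1000000 UMIs (CPM) outside Ins1, Ins2, Gcg, Sst, Ppy, Pyy, Iapp and mitochondrial genes. Genes at 50 CPM or more in either set were compared by ratio, with a limit of 2-fold. With 1 library per group no test was made. Shares have exact binomial, sums exact Poisson intervals at 95%. A count of 0 was set to 3. The ratios and intervals were tested on simulated counts. Named genes were those of the lists and, for each of 3 comparisons, the 8 highest and 8 lowest ratios outside Ins1, Ins2, Gcg, Sst, Ppy, mitochondrial, ribosomal and predicted (Gm, Rik) genes. The 10 genes most like Ppy were those with the highest Spearman correlation over TBL/RβKO double-positive cells at 50 CPM or more. Genes above or below both sets, and those most like insulin, were chosen after their values were seen. Some genes of the lists are not reported here. The cells and gene lists were chosen with earlier results of these data known.

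Doublets were scored with Scrublet (scanpy 1.11.5) in barcodes with more than 500 genes. Its own threshold marked 1.25% and 0.0187% of barcodes and had not worked in TBL/RβKO, so the highest scores were marked instead, at 0.8% per 1000 barcodes, and kept except in an alternative. Positions come from GENCODE M39 (GRCm39), matched by Ensembl identifier for 16 of 16 genes, and sequences from RefSeq (GRCm38.p6), matched by symbol. Software was Python 3.11.15, numpy 2.4.6, scipy 1.17.1, pandas 2.3.3 and matplotlib 3.10.9.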

Additional observations from a re-analysis of the deposited data

Results flagged for a closer look

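Double-positive hormone levels were also found in barcodes that the filter had set aside. Of 1335 TBL/RβKO barcodes with 2500 genes or fewer, 22 (1.65%, 1.04 to 2.48%) met all hormone limits, against 4 of 2017 (0.198%, 0.0541 to 0.507%) in the control. Their median Ppy was 344 and 4338 per 10000 and their median insulin 1616 and 595. Of 319 TBL/RβKO barcodes at or over the mitochondrial limit with more than 2500 genes, 10 (3.13%, 1.51 to 5.69%) met them, against 0 of 303 in the control.

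Spp1, the osteopontin gene, was past 2-fold in opposite directions in the libraries. Its log2 ratio of double-positive over insulin-only cells was 1.33 in the control, from 165 UMIs in 16 of 36 cells, and −2.11 in TBL/RβKO, from 1185 UMIs in 82 of 327 cells. The difference between these ratios was not tested.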

How the results depend on the processing

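No paired analysis was possible because each group is 1 library. Shares of double-positive cells moved with the definition. With fewer than 6000 detected genes required, as an upper limit on genes, they were 0.442% in the control and 3.52% in TBL/RβKO, a difference of 3.08 points. A Ppy limit of 75 gave 10.3% in TBL/RβKO (difference 9.37) and one of 300 gave 4.98% (4.41). An insulin limit of 600 gave 6.75% (6.07) and one of 1200 gave 4.74% (4.17). Barcodes past any hormone limit as denominator gave 8.77% (7.98). TBL/RβKO had the higher share under every one of these settings.

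Genes past 2-fold against insulin-only, Ppy-only and control double-positive cells numbered 92, 326 and 606. A floor of 10 CPM gave 256, 867 and 1445, a floor of 200 gave 29, 88 and 205, and cells under 6000 genes gave 196, 653 and 984. Against Ppy-only cells, all UMIs as denominator gave 212 and equal weight for each cell 494. Against control double-positive cells under 6000 genes, the log2 ratios of Crybb3 (2.94), Mgp (−1.65) and Prss53 (0.24) reversed. With the highest doublet scores removed, those of Cd74 (1.48) and H2-Eb1 (0.049) reversed, with few control UMIs left for either gene. The causes of these changes were not tested. Of 1255 values of named genes under alternatives, 1044 kept their direction and their side of 2-fold and moved by less than 0.5 on the log2 scale, 113 moved further, 58 came past 2-fold, 35 no longer were, and 5 reversed. Removing the highest doublet scores gave shares of 0.674% and 7.97%. Leaving out cells past a non-endocrine list, chosen after seeing the data, gave 0.789% and 8.41%. The 36 control cells limit what that set can show for genes of low level.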

Other observations

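Over the 327 TBL/RβKO double-positive cells, the 10 genes most like insulin are given here as a description of 1 library. Ssr4, Sec61b, Sec61g and Srp9, which serve the entry of new proteins into the endoplasmic reticulum, and Fkbp2, Krtcap2, Selenok, Nucb2, Serf2 and Dad1 had Spearman correlations with insulin between 0.50 and 0.58, and with Ppy between −0.01 and 0.21. Ssr4 led at 0.58 with insulin and 0.21 with Ppy. Of 9 measured stress genes of the endoplasmic reticulum, 0 were past 2-fold over insulin-only, Ppy-only or control double-positive cells, or 1 over the last with all UMIs as the denominator, with Hspa5 at 984 CPM in TBL/RβKO and 811 in control double-positive cells.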
